A study of Mus musculus with 9 samples.

Results

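The neuronal cytoskeleton, synapse and neurogenic genes are a list of 45 genes that nerve cells use for their filaments, microtubules, vesicles, secretory granules and RNA-binding proteins, together with factors that start nerve cell formation. The members were the genes of that list that the probe annotation gives as the single gene symbol of a probe set, and of several probe sets of a gene the brightest on average stood for it. Of the 45 genes, 41 had such a probe set, among 14440 genes in all. The levels of Dpysl5, Syt11, Syn1 and Elavl3 were not analysed here. Affymetrix arrays, 1 for each sample, measured 5 tumours and 4 samples of normal skeletal muscle. Mice labelled MYF-5 CRE/SSM2 gave the tumours, in a series on a SYT-SSX model of synovial sarcoma, a soft tissue cancer defined by that fusion protein, and Myf5, whose gene drives Cre there, is a factor of muscle precursors. Tumour 1 carries the label CC23, tumours 2 and 3 carry CC17-B and CC17-A, and tumours 4 and 5 carry SSM5 and SSM4. The muscle arrays, titled wild type, were of hind limb (muscles 1 and 4), intercostal muscle (muscle 2) and forelimb (muscle 3). Genotype and tissue therefore cannot be told apart, and the labels give no age. They also do not state that the animals differed from array to array, and p-values then measure the spread between these samples, which may be technical.

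As background, neurons are built in steps. Proneural factors such as Neurog2 act first and Neurod1 follows, young neurons then make doublecortin, class III tubulin, stathmins and Elavl proteins, and the neurofilaments, synaptic vesicle proteins and granule proteins rise as axons and synapses form. Many of these genes are restrained outside the nervous system by the repressor REST, and skeletal muscle holds axon endings but few or no neuronal cell bodies.

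Of the 21 members tested, 14 were higher in the tumours, where 30.1% of all genes tested were, and 7 were not called. The other 20 of the 41 members were too dim to test. With dim genes fitted too, 15 of the 41 were higher, against 21.6% of all 14440 genes. Members and lists were chosen with earlier results of these data known, so such counts, here and below, are not independent of these arrays. Some groups of members are described first, and other members fall in none. The 14 that rose included the filament genes Prph and Ina, the neuronal enzymes Eno2 and Uchl1, the stathmins Stmn2 and Stmn3, the vesicle protein gene Syp and the membrane protein gene Sez6. Neurod1, Neurog2, Dcx, Tubb3 and several others stood high in tumour 3 and near background in most other arrays. The neurofilament genes Nefl and Nefm and the calcium sensor gene Vsnl1 stayed at background on all 9 arrays. Values are scaled intensities, and the floor of an array, under which a value was taken as background, was the 40th percentile of its values, from 96.5 in tumour 4 to 137 in tumour 1. Testing required a level at or above the floor on 4 or more arrays, which left 21 of the 41 members (51.2%), against 73.7% of all genes.

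To show the start regions of genes that rose in all tumours and of genes high in tumour 3 side by side, the 250 bases before the annotated transcription start are given, 5′ to 3′ on the strand of the gene, from RefSeq on GRCm38.p6. They lie at chr15:99054924-99055173 on the plus strand for Prph, at chr19:47014431-47014680 on the plus strand for Ina, at chr2:79456637-79456886 on the minus strand for Neurod1 and at chr3:127632886-127633135 on the plus strand for Neurog2. Capitals mark the E-box CANNTG, the core that basic helix-loop-helix factors such as Neurod1 bind, and the TATA motif TATAAA.
Prph: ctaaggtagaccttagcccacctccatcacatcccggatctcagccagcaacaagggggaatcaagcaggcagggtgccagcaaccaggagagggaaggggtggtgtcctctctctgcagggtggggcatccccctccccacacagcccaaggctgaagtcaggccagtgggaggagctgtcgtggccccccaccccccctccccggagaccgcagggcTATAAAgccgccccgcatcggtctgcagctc
Ina: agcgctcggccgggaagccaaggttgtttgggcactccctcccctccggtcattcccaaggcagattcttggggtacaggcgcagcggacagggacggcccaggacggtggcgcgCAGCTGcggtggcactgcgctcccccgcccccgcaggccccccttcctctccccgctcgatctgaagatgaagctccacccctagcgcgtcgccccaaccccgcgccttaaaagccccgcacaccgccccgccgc
Neurod1: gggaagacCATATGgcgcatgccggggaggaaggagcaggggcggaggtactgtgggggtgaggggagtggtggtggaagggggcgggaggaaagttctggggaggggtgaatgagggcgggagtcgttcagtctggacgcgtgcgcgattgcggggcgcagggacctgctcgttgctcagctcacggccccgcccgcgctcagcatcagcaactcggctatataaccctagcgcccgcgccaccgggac
Neurog2: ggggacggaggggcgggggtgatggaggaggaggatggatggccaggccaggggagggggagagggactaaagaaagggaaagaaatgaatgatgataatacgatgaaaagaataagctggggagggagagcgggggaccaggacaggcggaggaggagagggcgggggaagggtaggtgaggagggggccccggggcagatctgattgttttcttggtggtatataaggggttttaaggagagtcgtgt
Prph has a TATAAA that begins 31 bases before its start. Ina has 1 E-box, which begins 135 bases before the start, and Neurod1 has 1, which begins 242 bases before it. The window of Neurog2 held no match to CANNTG or to the exact letters TATAAA. Variants of TATAAA were not searched, and the letters tatataa stand unmarked near the end of the Neurod1 and Neurog2 windows. The table of promoters had entries for 34 of the 45 listed genes, 49 windows in all, with Dpysl5, Syt11, Syn1 and Elavl3 among them. On both strands, CANNTG was in 55.1% of those windows and in 66.2% of all 32851 windows, TATAAA was in 12.2% and 12.4%, and the GC box GGGCGG was in 59.2% and 32.7%. Some windows of a gene, such as those of Elavl2, overlap and were counted apart. By gene, 22 of the 34 had CANNTG, 5 had TATAAA and 23 had GGGCGG in at least 1 window, and all genes were not counted this way. CANNTG reads the same on both strands. A match describes letters in this window only.

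**Figure D1:**
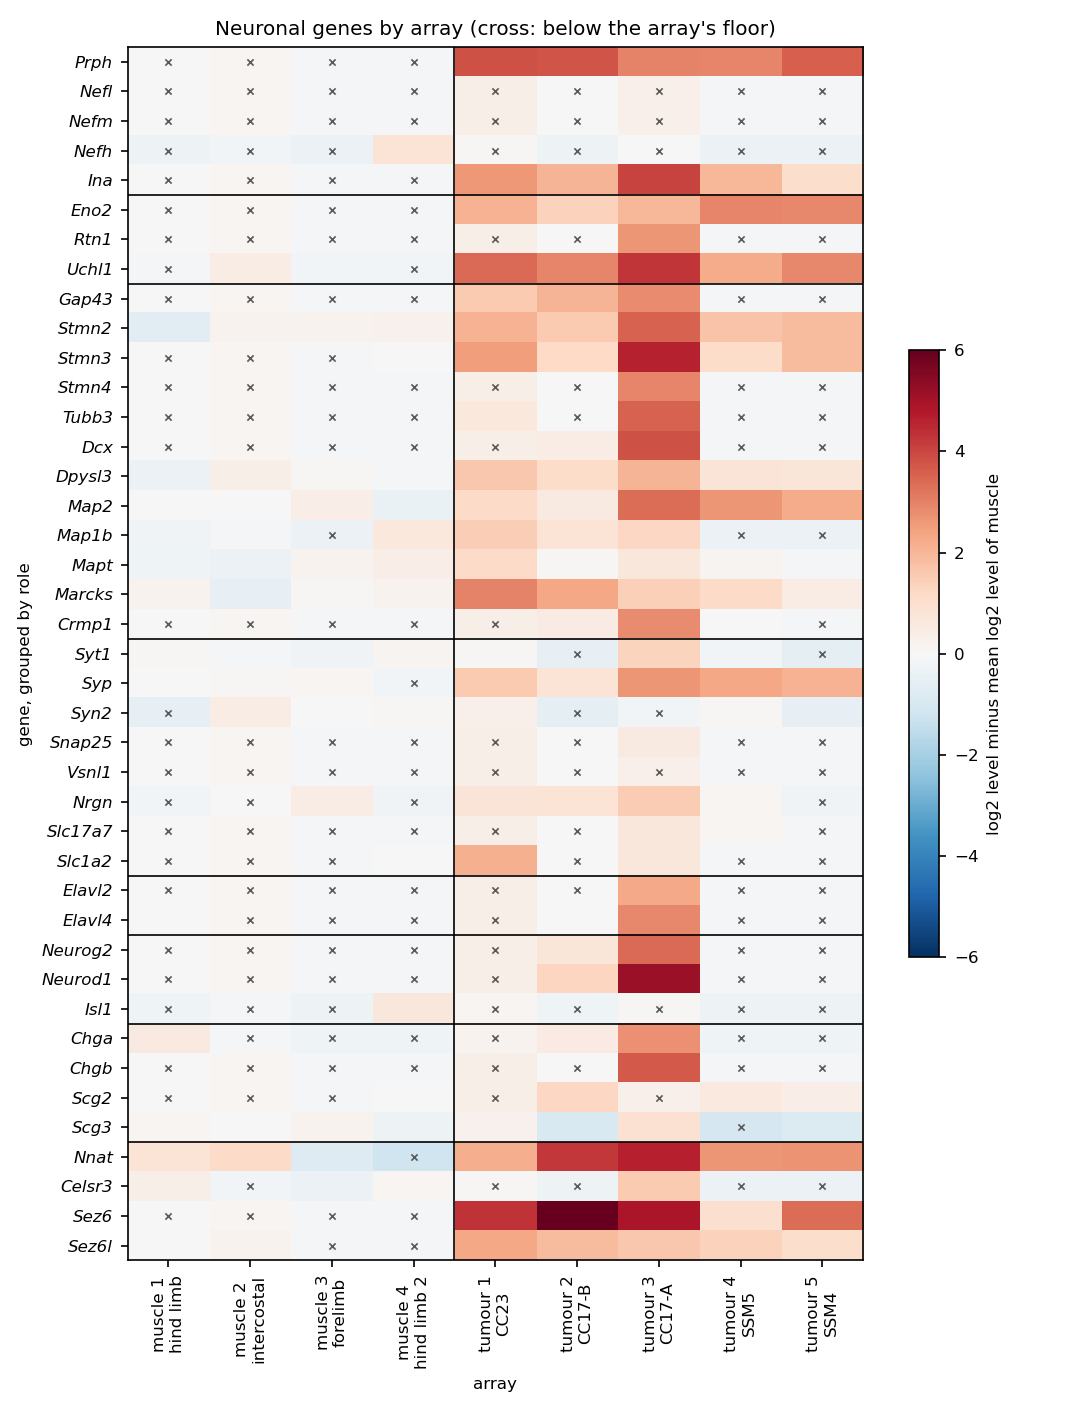
Level of each of the 41 neuronal genes on each array, as the log2 level minus the mean log2 level of the 4 muscle arrays, with rows grouped by role and values under the floor set to it (crosses). The column of tumour 3 is the darkest for genes such as Neurod1 and Dcx, Prph and Ina are high in all 5 tumours, and Nefl and Nefm are crossed throughout.

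Tumour and muscle were compared by limma on the log2(scaled intensity + 16) scale over 10646 genes, with Benjamini-Hochberg adjustment and a threshold of 0.05. Of the 21 members tested, 14 were higher in the tumours, 0 were lower and 7 were not called, and 20 of the 41 members were not tested. Over all genes tested, 30.1% were called higher and 18.0% lower, or 48.1% in either direction. Since a member could pass the filter through its tumour values alone, the comparison was also run without the filter, where 15 of 41 members were higher and 0 lower, against 21.6% and 13.2% of all 14440 genes. The median log2 fold change of the 21 members tested was 1.89, and that of all genes tested was 0.23. Without the filter these medians were 1.36 over the 41 members and 0.14 over all genes. Every tumour lay above every muscle array for 16 of the 41 members, against 19.4% of all genes (25.3% of the genes tested). For Neurod1, Crmp1 and Scg2 among the 16, some of the tumours were under the floor. The beta-actin 3′ to 5′ ratio, a measure of RNA integrity, was 12.7, 2.90, 1.99, 4.54 and 2.04 in tumours 1 to 5 and 1.62 to 1.93 in muscle. Every tumour thus lay above every muscle array, and the part of this in the neuronal values was not tested. Left out singly, each of the 9 arrays gave 13 to 15 members higher and 0 lower, while 25.4% to 31.8% of all genes tested were higher.

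**Figure D2:**
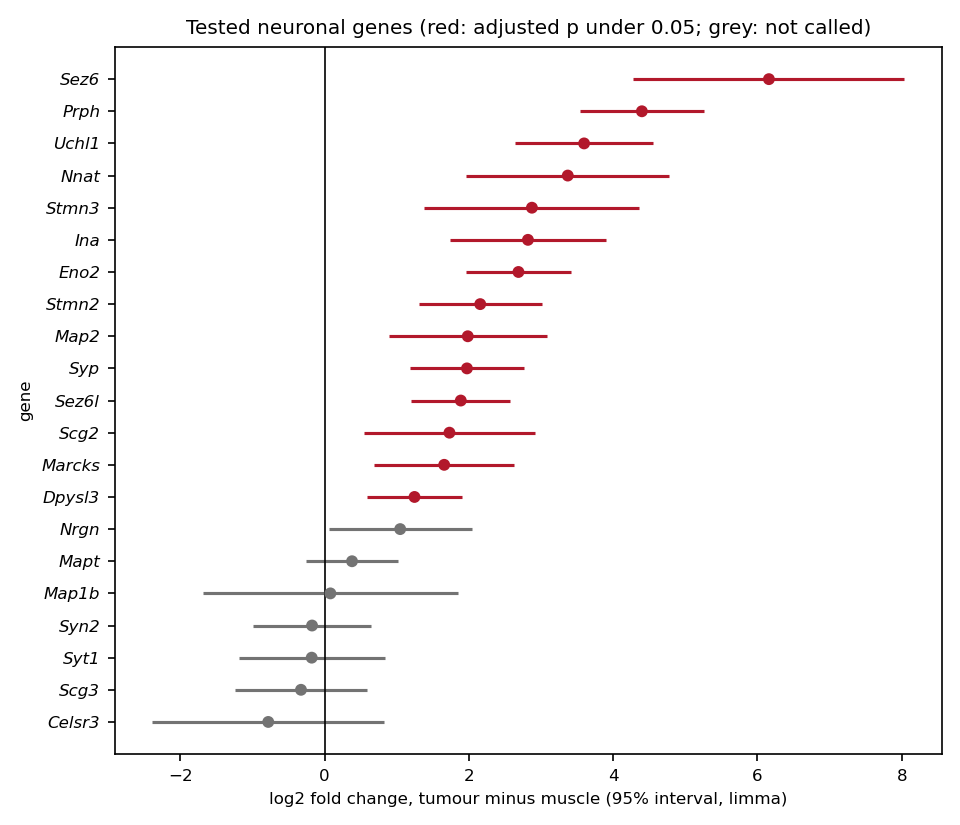
Log2 fold change, tumour minus muscle, of the 21 tested members with its 95% interval from limma, on the log2(scaled intensity + 16) scale. Red genes had an adjusted p under 0.05, from Dpysl3 at 1.25 to Sez6 at 6.16, and the grey genes, from Celsr3 at −0.78 to Nrgn at 1.05, were not called.

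Neuronal intermediate filaments give axons their calibre, and peripherin and alpha-internexin are their early members while the neurofilament triplet comes later. Prph (1422530_at), which encodes peripherin, was at 74.7, 10.2, 80.1 and 43.5 in muscles 1 to 4. In tumours 1 to 5 it stood at 1668, 1632, 927, 894 and 1424. All muscle values were under the floor and all tumour values above it. The tumour mean was at least 10.8-fold higher, and the log2 fold change was 4.40 (SE 0.39, limma adjusted p = 1.4e-05). Of the other 3 Prph probe sets, none was above the floor in more than 2 tumours, and with all 4 averaged the log2 fold change was 0.75 (limma adjusted p = 0.0488). Ina (1418178_at), alpha-internexin, had 85.8, 65.8, 79.7 and 49.2 in muscle and 693, 466, 1928, 450 and 234 in tumours 1 to 5. The groups did not overlap, tumour 3 was the highest, and the log2 fold change was 2.82 (SE 0.49, limma adjusted p = 0.00075). All muscle values of Ina were under the floor, so it was at least 5.05-fold higher in the tumours. The triplet genes were too dim to test. Nefl had tumour values from 26.1 to 90.0 and Nefm from 12.5 to 77.2, all under the floor. Nefh, the heavy subunit, lay between 40.4 and 92.6 in the tumours, all under the floor, and rose above it in muscle 4 alone, at 242. Of the 5 filament genes, 2 were thus higher, and 3 could not be told from background in any tumour.

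Among enzymes and membrane proteins that mark neurons, both tested genes rose. Uchl1 (1448260_at), a ubiquitin hydrolase abundant in neurons, was at 52.6, 159, 98.5 and 40.4 in the muscle arrays. Tumours 1 to 5 had 1321, 950, 2533, 591 and 929 for it, a log2 fold change of 3.60 (SE 0.44, limma adjusted p = 8.2e-05). Eno2, the neuronal enolase, was at 69.8 to 76.8 in muscle, and in tumours 1 to 5 it was at 487, 291, 456, 893 and 861. Its muscle arrays were all under the floor, and it was at least 4.77-fold higher in the tumours (limma adjusted p = 8.6e-05). Unlike Uchl1, it was highest in tumours 4 and 5. Rtn1, a reticulon of the endoplasmic reticulum, was not tested, since it passed the floor in tumour 3 alone, at 727, with the other tumours at 5.16 to 14.6.

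Microtubule regulators and growth cone proteins were split. Stathmins bind free tubulin, and Stmn2 and Stmn3 are the forms of growing neurites. Stmn2 (1423281_at) was above the floor in every sample, at 177, 343, 336 and 351 in muscle and 1273, 893, 3545, 991 and 1144 in tumours 1 to 5. The log2 fold change was 2.16 (SE 0.39, limma adjusted p = 0.00092), and each tumour lay above each muscle array. Stmn3 stood at 17.0, 108, 62.5 and 102 in muscle, and at 660, 260, 2882, 245 and 433 in the tumours, with a log2 fold change of 2.87 (SE 0.68, limma adjusted p = 0.0049). Tumour 3 was 4.37-fold above the next tumour, and without tumour 3 the log2 fold change was 2.29. The other Stmn3 probe set, 1460181_at, had a log2 fold change of 1.48 (limma adjusted p = 0.0406 over all probe sets). Stmn4, a further neural stathmin, reached the floor in tumour 3 alone, at 877, and was at 6.50 to 15.3 in the other tumours. Thus Stmn2 and Stmn3 rose in the group while Stmn4 was a tumour 3 signal.

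Map2, a microtubule protein of dendrites, was at 150, 144, 198 and 108 in muscle and at 347, 223, 1634, 1014 and 739 in the tumours. The log2 fold change was 1.99 (SE 0.50, limma adjusted p = 0.0070). With its 4 probe sets averaged it was 0.66 (limma adjusted p = 0.126), so this call rests on 1 probe set. Dpysl3, a collapsin response mediator of growth cones, had a log2 fold change of 1.25 (SE 0.30, limma adjusted p = 0.0055), with tumours at 423 to 1073 and muscle at 190 to 327. Marcks, a protein kinase C substrate that links membrane and actin and is not confined to neurons, was at 2069 to 3409 in muscle and at 22732, 14618, 7785, 6542 and 3971 in tumours 1 to 5. It had a log2 fold change of 1.66 (SE 0.44, limma adjusted p = 0.0094), 3 of its other 4 probe sets rose by 1.36 to 1.71, and with all 5 averaged the value was 0.91. The remaining one, 1437034_x_at, went the other way by −1.76 (limma adjusted p = 0.0040 over all probe sets).

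Mapt and Map1b, microtubule proteins of axons, were tested and not called. Mapt had a log2 fold change of 0.38 (95% interval −0.26 to 1.02, limma adjusted p = 0.302), and its other 3 probe sets had values from −0.76 to −0.68. Map1b was at 109, 119, 50.2 and 208 in muscle and at 379, 236, 322, 10.9 and 30.2 in tumours 1 to 5. The 3 tumours labelled CC thus lay above every muscle array, while the 2 labelled SSM were under the floor, as was muscle 3. The group difference was 0.08 (95% interval −1.68 to 1.85, limma adjusted p = 0.942). Another Map1b probe set, 1421851_at, had 67.1, 152, 265, 91.2 and 81.3 in tumours 1 to 5, where tumour 1 was below tumours 4 and 5. Gap43, a growth cone protein, was at 340, 465 and 837 in tumours 1 to 3 and at 19.6 and 7.92 in tumours 4 and 5, which were under the floor like all muscle arrays. It was not tested, and no test of the CC against the SSM tumours was made here.

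Neurod1, Neurog2 and Isl1 were the neurogenic factors of the list, and none of them passed the filter. Neurod1 (1426412_at), a factor that drives neuronal differentiation, was at 19.3, 26.5, 33.1 and 7.79 in muscle. Tumours 1 to 5 had 55.1, 275, 4349, 47.1 and 48.5. Tumour 3 was 15.8-fold above tumour 2, the only other array over its floor, and the second Neurod1 probe set had 1473 in tumour 3 and at most 172 elsewhere. Neurog2, the proneural factor upstream of it in cortex and sensory ganglia, was at 117, 178, 1239, 7.20 and 56.9 in tumours 1 to 5, with muscle at 2.79 to 41.7. Tumours 2 and 3, labelled CC17-B and CC17-A, were the ones over the floor for both factors. Isl1, a homeodomain factor of motor and sensory neurons, was under the floor in all 5 tumours, at 20.7 to 126.

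Doublecortin and class III tubulin, microtubule proteins of migrating young neurons, shared that shape. Dcx (1418141_at) stood at 61.9, 148, 1639, 18.2 and 3.41 in the tumours and at 7.91 to 44.9 in muscle, and of its other 3 probe sets 1 had 810 in tumour 3 while 2 had 130 and 169, without such a lead. Tubb3 was at 168, 68.4, 1349, 55.3 and 67.9 in the tumours, with muscle at 8.39 to 67.3. Both were thus highest in tumour 3, by 11.1-fold and 8.03-fold over the next array. The RNA-binding proteins Elavl2 and Elavl4, which stabilise messages in neurons, had 549 and 864 in tumour 3 and at most 80.8 and 106 in the other tumours. Crmp1, a relative of Dpysl3, was at 120, 153, 833, 103 and 79.7 in the tumours and 9.89 to 24.7 in muscle, so its groups did not overlap. Tumours 1 and 5 and all muscle arrays were under the floor, so part of that separation lay within background. Without the filter Crmp1 was the added call, with a log2 fold change of 2.44 (SE 0.58, limma adjusted p = 0.00645).

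The granule proteins divided the same way. Chromogranins Chga and Chgb, which condense hormone and transmitter cargo, were at 879 and 1485 in tumour 3. The other tumours had 7.49 to 171 for Chga and 37.5 to 118 for Chgb. Muscle was at 15.5 to 179 for Chga, with muscle 1 the highest and above its floor, and at 35.4 to 52.9 for Chgb, all under the floor. Scg2, secretogranin II, had no such lead: it was at 110, 268, 114, 165 and 142 in the tumours and 67.6, 11.3, 7.92 and 104 in muscle. Tumours 1 and 3 and all muscle arrays but muscle 4 were under the floor. Its log2 fold change was 1.73 (SE 0.54, limma adjusted p = 0.020), and the call ended without muscle 2, muscle 3 or tumour 2 (limma adjusted p = 0.0555, 0.0605 and 0.0534). Scg3 was not called, at −0.33 (95% interval −1.25 to 0.59, limma adjusted p = 0.545).

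Of 8 synapse and transmitter transport genes in the table, 1 was higher, 3 were not called and 4 were not tested. Over all genes tested, 30.1% were higher. Syp, synaptophysin of the vesicle membrane, was the one that rose, at 111, 120, 124 and 77.8 in muscle and 369, 214, 802, 632 and 533 in tumours 1 to 5. Its groups did not overlap, and the log2 fold change was 1.97 (SE 0.36, limma adjusted p = 0.00097), or 1.30 with its 2 probe sets averaged. The calcium sensor of release, Syt1, and the vesicle tether, Syn2, were not called, at −0.18 (95% interval −1.19 to 0.84, limma adjusted p = 0.775) and −0.17 (95% interval −0.99 to 0.64, limma adjusted p = 0.728). Snap25, a fusion protein, passed the floor in tumour 3 alone, at 158, and the vesicular glutamate transporter Slc17a7 in tumours 3 and 4, at 172 and 112. Slc1a2 (1438194_at), the glutamate transporter of astrocytes, was at 508 in tumour 1 and 177 in tumour 3, and under the floor in the other tumours. Its probe sets 1439940_at, 1451627_a_at and 1459014_at were under the floor on every array, with tumour 1 at 106, 94.9 and 7.34. Nrgn, a calmodulin-binding protein of dendrites, had a log2 fold change of 1.05 and missed the threshold (95% interval 0.06 to 2.04, limma adjusted p = 0.0759). It passed without muscle 3 or tumour 5 (limma adjusted p = 0.0379 and 0.0318), and when ribosomal protein and proteasome genes set the scale (limma adjusted p = 0.0366). Vsnl1 was under the floor throughout, at 11.2 to 93.6.

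The membrane protein genes held the largest rise of the list. Sez6 (1427674_a_at), a neuronal transmembrane protein first found as a seizure-related gene, was at 13.5, 8.07, 11.1 and 11.9 in muscle. In the tumours it was at 2376, 11317, 3566, 217 and 1176, lowest in tumour 4 and highest in tumour 2. That was at least 16.3-fold higher than muscle, and the log2 fold change was 6.16 (SE 0.85, limma adjusted p = 0.00018), or 5.52 without tumour 2 and 6.92 without tumour 4. Muscle was under the floor throughout, so the size depended on the constant added before the log. It was 7.31 with 1 added in place of 16, and 4.76 with 64. A second Sez6 probe set, 1420885_a_at, had a log2 fold change of 1.78 (limma adjusted p = 0.0415 over all probe sets), with tumour 4 at 93.9 inside the muscle range of 57.1 to 166. With both averaged the value was 3.97. Its relative Sez6l was more even, at 581, 438, 360, 305 and 236 against 63.8 to 126 in muscle, and its log2 fold change was 1.89 (SE 0.31, limma adjusted p = 0.00055). Nnat, neuronatin, an imprinted membrane protein of developing brain, was at 448, 558, 136 and 76.7 in muscle and 1176, 4972, 6669, 1627 and 1674 in the tumours. The log2 fold change of Nnat was 3.37 (SE 0.64, limma adjusted p = 0.0013). Celsr3, an adhesion receptor of axon tracts, was not called, at −0.78 (95% interval −2.39 to 0.83, limma adjusted p = 0.403), with tumour 3 at 410 and the other tumours at 18.1 to 110. Without tumour 3 its value was −1.40 (limma adjusted p = 0.0549).

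The lead of tumour 3 was counted by a rule chosen after its values were seen, that of standing at least 4-fold above each of the other 8 arrays with values under the floor set to it. It held for 11 of the 41 members (26.8%) and for 39 of 14440 genes (0.270%). For tumours 1, 2, 4 and 5 in turn it held for 0 members, and for 4, 2, 4 and 3 genes (0.0277%, 0.0139%, 0.0277% and 0.0208%). Stmn3 was just inside, at 4.37-fold, and Elavl2 just outside, at 3.996-fold. Of the 20 genes with the largest such lead in tumour 3, 8 were members. The others included Calb2, a calcium-binding protein of interneurons, at 4114 against at most 73.7 elsewhere. Nhlh1, a helix-loop-helix factor of young neurons, was at 2082 against at most 196. Genes not particular to neurons were there too, such as the epithelial gene Epcam, at 4696 against at most 725. The replication gene Fen1 was at 23469 against at most 3786. Dcc, Dmrta2, Boll, Tac2, Cartpt, Cldn6, Dmrt3 and Hes5 made up the rest. Tumour 3 was the highest tumour for 28 of the 41 members (68.3%), against 25.8% of all 14440 genes. Of the 36 members above the floor in at least 1 tumour, it was the highest for 26 (72.2%), against 24.4% of the 11693 such genes. Some of the 36, such as Stmn4 and Rtn1, passed the floor in tumour 3 alone, which fixed their place. With tumour 3 left out, 14 of the 21 members tested were still higher and 0 lower, against 27.7% of all genes tested higher. With both CC17 tumours left out, 12 of the 21 were higher, against 24.9%.

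**Figure D3:**
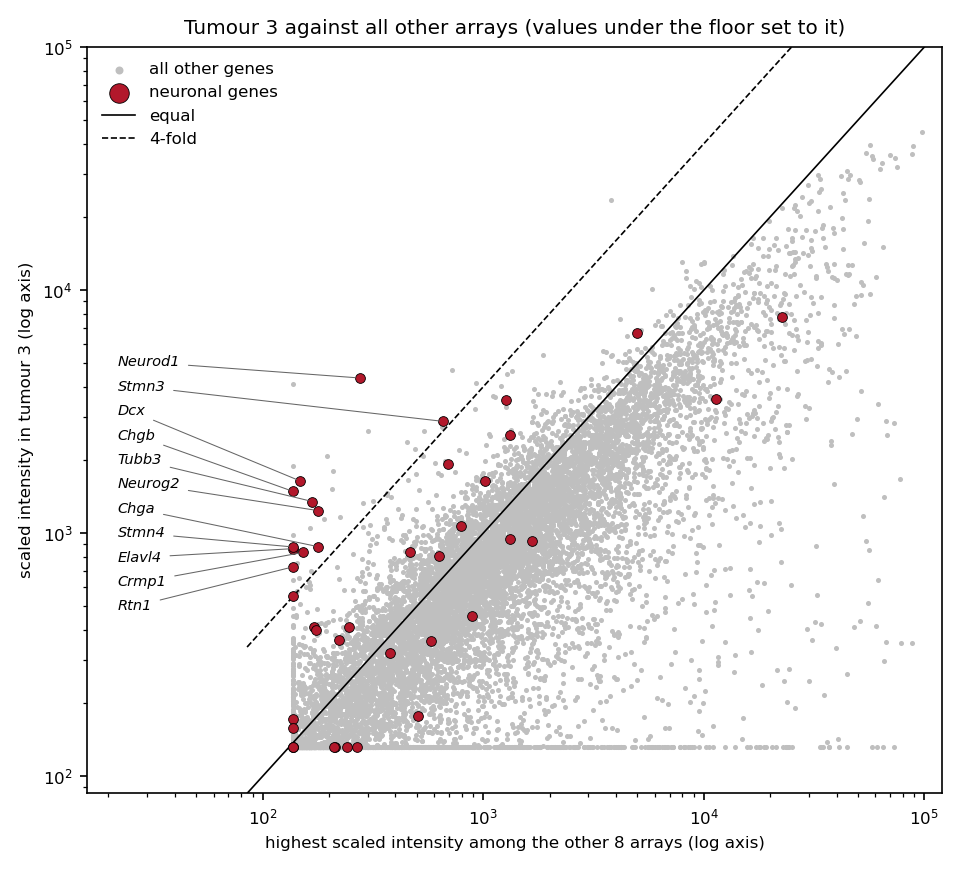
Scaled intensity in tumour 3 against the highest scaled intensity among the other 8 arrays, both on log axes, for 14440 genes (grey) with the 41 neuronal genes in red and values under the floor set to it. The 11 named genes lie above the dashed 4-fold line, with Neurod1 at 4349 against 275.

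Other genes of neurons and of their repressor REST were described through 8 lists, which held 140 genes beyond the members. The list of REST and its corepressors, which restrain neuronal genes, gave 7 of the higher calls below and 0 of the lower. Of the 140 genes, 97 were tested and 43 were not. Among the 97, 40 were higher, 14 lower and 43 not called, beside the 30.1% and 18.0% of all tested genes above. Without the filter, 40 of the 140 were higher and 14 lower, against 21.6% and 13.2% of all 14440 genes. The median log2 fold change of the 97 tested was 0.58. Of 28 neurogenic transcription factors, 18 were tested, and 10 were higher and 0 lower. Onecut2 (4.78, SE 0.30, limma adjusted p = 3.6e-06), Lhx1 (4.71), Lhx2 (4.65) and Lhx9 (3.30) led them on the log2 scale, factors that pattern several embryonic tissues besides neurons. Muscle was under the floor throughout for 9 of the 10, and Onecut2 was at least 6.27-fold higher, with tumours 1 to 5 at 1097, 743, 568, 717 and 614. Its lowest value was in tumour 3, where Neurod1 was highest. Neurod2, Neurod4 and Neurod6 were not tested, and reached at most 196 in any tumour, the value of Neurod6 in tumour 3.

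**Figure D4:**
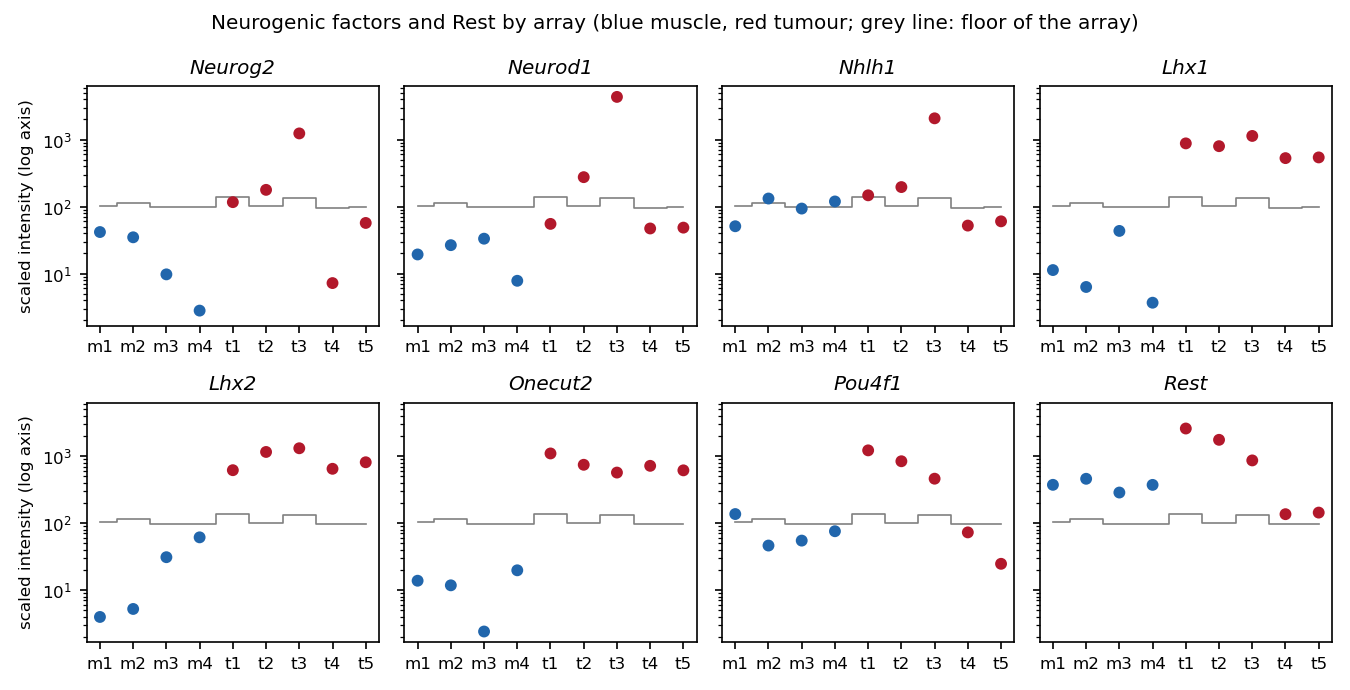
Scaled intensity on a log axis of 8 transcription factors in muscles 1 to 4 (m1 to m4, blue) and tumours 1 to 5 (t1 to t5, red), with the floor of each array as a grey line. Neurog2, Neurod1 and Nhlh1 peak in tumour 3, while Lhx1, Lhx2 and Onecut2 are above the floor in all 5 tumours.

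REST recruits deacetylases and CoREST to neuronal genes. Among 11 such genes measured, 7 were higher and 0 lower, against 30.1% and 18.0% of all genes tested. The 7 were led by Hdac1 (2.01, SE 0.20, limma adjusted p = 2.5e-05), Rcor2 (1.94), Rcor1 (1.34) and Kdm1a (1.30). Rest itself was at 373, 459, 286 and 372 in muscle and at 2587, 1753, 863, 136 and 143 in tumours 1 to 5. It was therefore above muscle in the CC tumours and below it in the SSM tumours, and the group difference of 0.71 was not called. In tumour 3, Rest was at 863.

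Axonal transport and synapse lists held calls both ways, as did all genes tested, with 30.1% higher and 18.0% lower. The vesicle list, with 4 higher and 3 lower of 14 tested, was near those shares. Of 16 genes of axon cytoskeleton and transport, 15 were tested, and 7 were higher and 1 lower. Mapk8ip2 (2.87, SE 0.48, limma adjusted p = 0.00062), a scaffold carried by kinesin, Dclk1 (2.72), the doublecortin-like kinase, Tubb4a (2.49) and Dync1i1 (2.07), a dynein chain, were the largest, and Dynll2 fell by 1.04 on the log2 scale. Of 26 vesicle and release genes, 14 were tested. Of those, 4 were higher, with Syt13 (1.98), Syngr3 (1.63), Syt5 (1.19) and Sv2a (1.02), and 3 lower, with Syngr1 (−1.53), Cplx1 (−1.42) and Vamp1 (−1.35). Of 21 postsynaptic genes, 15 were tested, and 3 were higher, with Grik5 (3.28), Nlgn2 (2.34) and Dlg3 (1.55), and 5 lower. The lower ones were led by Camk2a (−4.24), Homer1 (−2.69), Camk2b (−1.91) and Homer2 (−1.42), which muscle also uses.

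For the lists that follow, the shares over all genes tested were 30.1% higher and 18.0% lower. Of 16 neuroendocrine granule genes, 9 were tested, and 4 were higher and 3 lower. Sst, the peptide somatostatin, was at 1277, 723, 1609, 120 and 1327 in tumours 1 to 5 with muscle under the floor, a log2 fold change of 3.47 (SE 0.68, limma adjusted p = 0.0016). Scg5 (3.03), Ptprn2 (2.37) and Pcsk1n (2.16) were also higher, and Cpe (−2.64), Ptprn (−1.72) and Dbh (−0.89) were lower. Of 12 genes in the RNA-binding list, 8 were tested. Of those, 3 were higher, Msi1 (2.71), Fmr1 (1.69) and Elavl1 (0.67), and 2 lower, Cpeb1 (−2.11) and Celf2 (−0.76). The 3 higher genes are not confined to neurons. Of 11 neural progenitor genes, 8 were tested, and 3 were higher, with Sox2 (6.92), Pax6 (3.55) and Msi1, which stood in both lists, and 0 lower. Nes, the progenitor filament nestin, was not called, at 0.12.

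**Figure D5:**
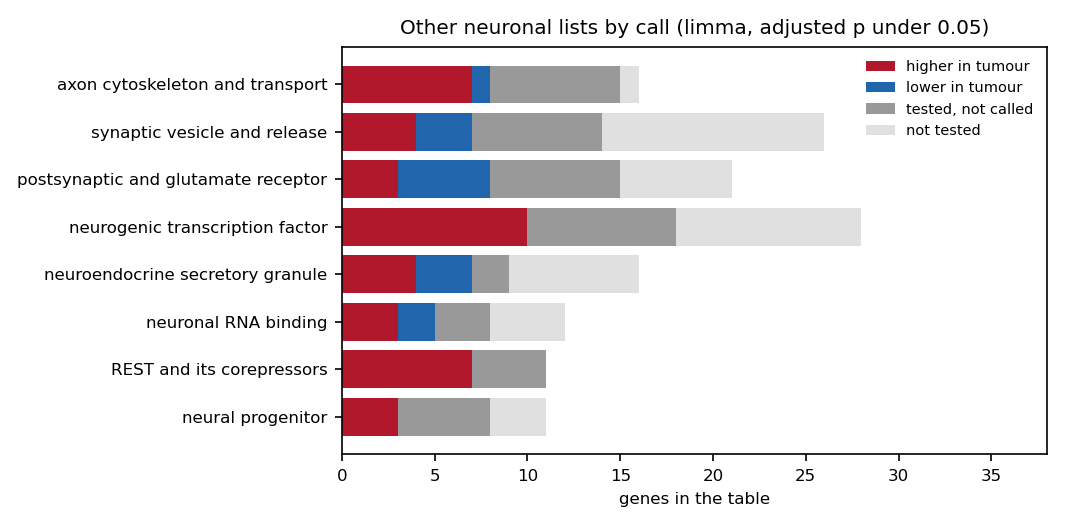
Number of genes of each of the 8 other lists, REST and its corepressors among them, by limma call at an adjusted p under 0.05. Red is higher in tumour, blue lower, grey tested and not called, and light grey not tested. The transcription factor list has 10 higher and 0 lower, and the postsynaptic list has 3 higher and 5 lower.

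Markers of other cells that the samples could hold were read from the same arrays, and in bulk tissue fewer cells of a type and less RNA per cell cannot be told apart. Beside the calls given here, 30.1% of all genes tested were higher and 18.0% lower. All 11 muscle fibre genes were in the table, 10 of them lower and 1 not called, with summed levels of 506060 to 704810 in muscle and 621 to 130890 in the tumours, lowest in tumour 4. Of 10 Schwann cell genes, 1 was higher and 3 lower, and their summed level was 5170 to 7628 in muscle and 4390 to 11802 in the tumours. Mbp, the myelin protein, was at 91.6 in tumour 3, under the floor, and at 1804 in tumour 4. Of 4 peripheral neuron genes, Prph was higher and Dbh lower, and without Prph, itself a member, the summed level of the other 3 was 253 to 568 in muscle and 174 to 607 in the tumours. Chat was at 229 in tumour 1 and 136 in tumour 3. Of 3 astrocyte genes 2 were lower, with sums of 1768 to 4957 in muscle and 857 to 2156 in the tumours. Of 5 oligodendrocyte genes 0 were called, with sums of 311 to 403 and 135 to 313, and Mog was under the floor on all arrays. For 7 endothelial genes, 5 macrophage genes, 5 fibroblast genes and 3 adipocyte genes, the higher and lower calls were 0 and 3, 2 and 0, 3 and 1, and 0 and 0. Their sums were 4165 to 4782, 3645 to 4316, 30726 to 44957 and 28335 to 115140 in muscle. In the tumours they were 2098 to 3371, 5199 to 10708, 21119 to 77156 and 463 to 33783. Their part in the neuronal values was not tested.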

How the data were processed

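Total RNA of 5 tumours and 4 muscle samples was hybridised to Affymetrix arrays, 1 per sample. The authors deposited probe set intensity on a linear scale, made with MAS5 per the submitters' processing notes; version and scaling target are not given in the sources used here. Arrays were scaled to a common 2% trimmed mean, since trimmed means differed by more than 10% (430 to 610, factors 0.909 to 1.29). Control probe sets (7) and probe sets with several symbols (496) or none (4424) were left out, and 25581 remained. The difference between tumour and muscle was fitted by limma 3.58.1 (R 4.3.3) on log2(scaled intensity + 16), two-sided, with an intensity trend, Benjamini-Hochberg adjustment over the 10646 genes tested, and no covariate. A fold given as "at least" sets the tumour mean log2 level against the muscle floors. Of the values of any 2 arrays, 0.0% were identical. Precision is limited by how many arrays there are. The procedure was tested on simulated data. Every member is named, with up to 4 called genes per direction of each further list. Members and lists were chosen with earlier results of these data known. Alternatives were other scalings, pseudocounts (1 and 64), filters, probe set choices, settings of the fit, the CC17 tumours averaged and each array left out. Leaving out both CC17 tumours was added after seeing the data.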

Additional observations from a re-analysis of the deposited data

Results flagged for a closer look

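Among the 5 tumours, tumour 3 stood far above the other 4 for 13 of the 41 members, by the gap to the next tumour as a share of the whole range on the log2 scale, with values under the floor set to it. The values in tumour 3 were 4349 for Neurod1, 3545 for Stmn2, 1639 for Dcx, 1485 for Chgb, 1349 for Tubb3, 1239 for Neurog2, 879 for Chga and 877 for Stmn4. They were 864 for Elavl4, 833 for Crmp1, 727 for Rtn1, 549 for Elavl2 and 410 for Celsr3. Chance flags about 1 in 20 groups of values that are not set to a floor. That rate need not hold for genes such as Stmn4 and Rtn1, whose other tumours were all set to it. Over all 14440 genes 4.43% had a tumour that stood out, 168 of them with tumour 3 the high one. Among the 4 muscle arrays, muscle 4 was high for Nefh at 242, muscle 2 high for Uchl1 at 159, and muscle 1 low for Stmn2 at 177. Over all genes 7.69% had such a muscle array, and muscle 2, the intercostal sample, was the high one for 484 genes.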

How the results depend on the processing

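Of the 14 members called, 11 kept their direction and call under every alternative run in which they were tested. The exceptions were Scg2, as given above, Map2 with its probe sets averaged, and Marcks without both CC17 tumours (limma adjusted p = 0.0501). The count of members higher ran from 11 to 15 and the count lower was 0 throughout. Of all genes fitted, 21.6% to 35.4% were higher in those runs. Over single arrays left out, the counts ran from 13 to 15 and the median log2 fold change of the members from 1.78 to 1.98. The median was 1.64 with a pseudocount of 64, 1.36 with no filter, 2.16 with the floor at the 60th percentile, 1.60 with all probe sets averaged and 1.53 with only _at probe sets. Minus the median of all genes, which was 0.04 to 0.44 across 5 scalings, it was 1.63 to 1.71, and the higher share of all calls was 62.6% in the report, 51.9% with each array's median as its centre and 72.8% centred on ribosomal protein and proteasome genes. Members at background on all 9 arrays numbered 3, or 1 and 8 with the floor at the 30th and 60th percentile. Related genes higher numbered 25 with the floor at the 60th percentile, where 56 of them were tested and 33.6% of all genes tested were higher. Signs turned for uncalled genes only. Map1b was −0.0603 as deposited, −0.11 centred on the median, −0.0412 with quantile normalization, −0.10 with a pseudocount of 1, −0.20 with the CC17 tumours averaged, −0.67 without them, and −0.31 to 0.66 over single arrays left out. Mapt was −0.44 with probe sets averaged and −0.68 with only _at probe sets. Centred on ribosomal protein and proteasome genes, Syt1 was 0.0173 and Syn2 was 0.0208, and over single arrays left out they ran from −0.55 to 0.0448 and from −0.44 to 0.0058, with Syn2 at 0.0611 without the CC17 tumours. The cause was not tested. Intensities near the floor carry little signal over background. No paired analysis was possible because the labels give the groups no shared replicate numbers.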
